A study of Caenorhabditis elegans with 58 samples.

Results

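The change in miRNA levels from the last larval stage to the young adult was followed in wild-type hermaphrodites of the nematode Caenorhabditis elegans. The 7 libraries labelled as wild-type L4 larvae and wild-type young adults of experiment 1 were taken from the 58 libraries of the series, and all 276 miRNA arms of the count table were considered. Both groups were whole animals of the N2 strain, with no mutation in the miRNA Argonautes that the series studied. The 3 L4 libraries came from animals grown for 48 h at 20 °C after hatching as starved L1 larvae, and the 4 young adult libraries from animals grown for 44 h at 25 °C. Growth temperature therefore differed with stage, and the effects of stage and temperature cannot be told apart in these data. Whether the replicates were separate cultures is not in the labels. The p-values thus rest on the spread between libraries, and that spread could be technical.

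In C. elegans each miRNA hairpin is cut into a duplex, from which an Argonaute, mainly ALG-1 or ALG-2, keeps the guide strand while the star strand is discarded. Some miRNAs drive the larval program itself: lin-4 and the let-7 family are heterochronic regulators that switch off early-stage genes in sequence, and let-7 is needed for the larval-to-adult transition. Others mark a tissue or a period of life, such as the mir-35 family, which is abundant in embryos and required for embryonic development.

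The libraries held 7078431 to 11518549 miRNA counts each, and 248 to 260 arms had at least 1 count per library. Dividing by the total miRNA count of a library gives CPM, and 3 counts were worth 0.260 to 0.424 CPM. Spike-in RNAs had 1167570 to 2398920 counts per library. Levels are given as CPM scaled by the TMM method, which brings the bulk of the arms to a common level, and a fold change is young adult over L4. Of the 276 arms, 224 were tested, 130 guides and 94 stars. The remaining 52 arms, 44 stars and 8 guides, were too low, with at most 16 counts in any of the 7 libraries and 0 in all of them for 7 arms. As a tissue marker, the muscle miRNA mir-1_3p stood at 149285, 167144 and 178311 CPM in the L4 libraries and at 135147, 153137, 157870 and 162705 CPM in the young adults. These ranges overlapped, and mir-1_3p did not pass the test (log2 fold change −0.12, 95% interval −0.32 to 0.09). It was called lower in 3 of 15 alternative settings: with total counts (−0.23), spike-in totals (−0.61) and the wild-type young adults of experiment 2 (−0.46). The animals were sampled whole, so fewer cells of a type and less RNA per cell cannot be told apart.

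Across all arms, 124 of 224 passed an adjusted p of 0.05 in edgeR's quasi-likelihood test, which is 55.4% of the arms tested. Of these, 58 (25.9%) were higher and 66 (29.5%) lower in young adults, and the median log2 fold change was −0.074. Of the 130 guides, 30 (23.1%) were higher and 41 (31.5%) lower, and of the 94 stars 28 (29.8%) were higher and 25 (26.6%) lower. Among the calls, 39 of the higher arms and 20 of the lower arms changed by more than 2-fold. The groups did not overlap for 131 arms (58.5%). The split of directions depended on the scaling. With spike-in totals as library size 138 arms passed, 32 higher and 106 lower, with a median of −0.57; with total miRNA counts 126 passed, 49 higher and 77 lower, with a median of −0.18; with DESeq2's size factors 120 passed, 64 higher and 56 lower, with a median of 0.0064. Without L4 replicate 3, 97 passed, 57 higher and 40 lower. Changes are therefore given relative to the TMM scale, and a small change in either direction holds only on that scale.

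**Figure D1:**
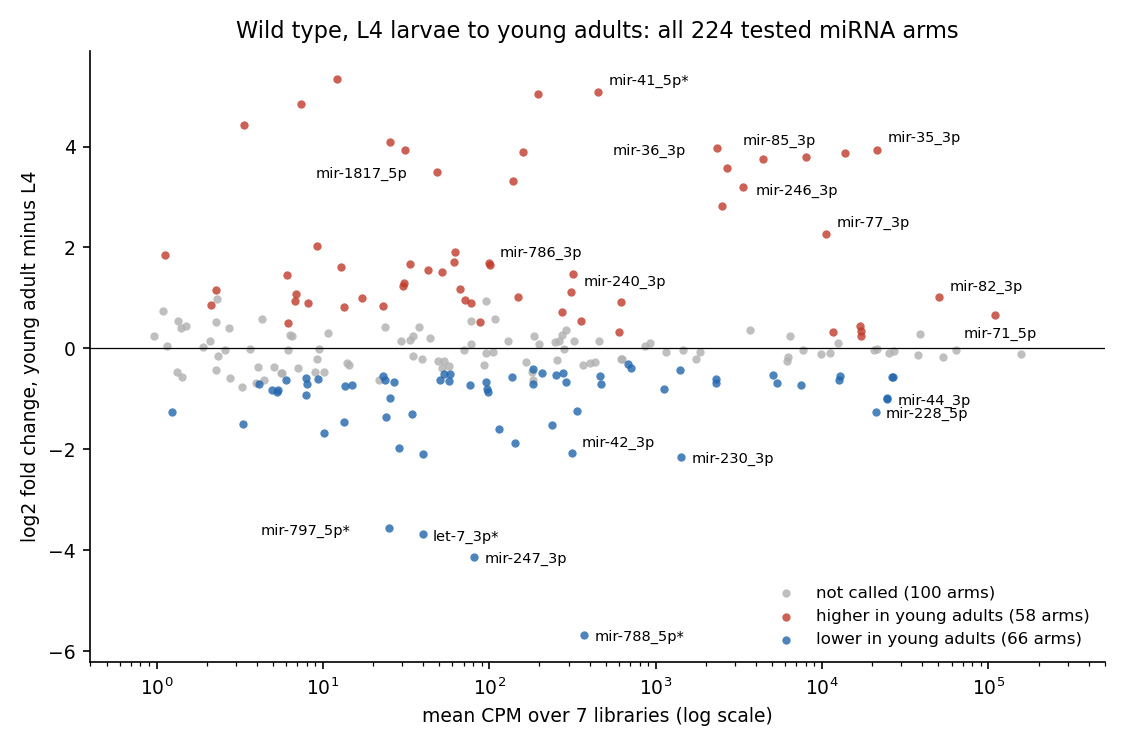
Log2 fold change of young adults over L4 larvae (y axis) against the mean TMM-scaled CPM of the 7 libraries (x axis, log scale) for the 224 tested arms, 1 point an arm. Red points (58 arms) were higher and blue points (66 arms) lower at an adjusted p of 0.05, and grey points did not pass. The upper part of the plot is led by arms of mir-35 to mir-41, and the lowest point is mir-788_5p*, at −5.67.

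The mir-35 to mir-41 miRNAs rose together. Their hairpins lie in 1 cluster on chromosome II (11537629 to 11538389, plus strand, ce11), inside an intron of Y62F5A.9, which is on the opposite strand. mir-35_3p stood at 2311, 2382 and 2329 CPM in the L4 libraries and at 41855, 44899, 30484 and 24856 CPM in the young adults. The L4 libraries lay close together, every young adult library was far above them, and young adult replicates 1 and 2 were higher than replicates 3 and 4. The log2 fold change of mir-35_3p was 3.92 (SE 0.23, adjusted p = 3.32e-06), a 15.2-fold rise.

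All 7 guides of the cluster were called higher, against 23.1% of all guides, with log2 fold changes from 3.32 for mir-38_3p to 3.97 for mir-36_3p. Their levels spanned a wide range. mir-37_3p rose from 1565 ± 110 (SD, n = 3) to 22769 ± 6280 CPM (SD, n = 4), whereas mir-41_3p rose from 3.41 ± 0.437 to 52.0 ± 14 CPM. The guides of mir-35 to mir-41 together took 0.608, 0.595 and 0.526% of all miRNA counts in the L4 libraries and 9.56, 9.58, 6.34 and 5.54% in the young adults. For scale, the same sum on plain CPM, without TMM factors, was 500927 ± 16233 (SD, n = 4) in wild-type embryos of experiment 1, against 5764 ± 439 in L4 larvae and 77553 ± 21186 in young adults. How far embryos or germ cells inside the adults took part in this rise was not tested.

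The star arms of the cluster were also called higher, all 7 of them against 29.8% of all stars, with log2 fold changes from 3.90 to 5.35. mir-41_5p*, the more abundant arm of its hairpin although annotated as the star, rose from 22.7 ± 2.03 to 774 ± 273 CPM. For mir-35_5p*, mir-37_5p* and mir-38_5p* the 3 L4 libraries held only 12, 14 and 7 counts in all, so the size of their rise is imprecise. mir-42, which the miRNA databases count to the same family by its seed, lies elsewhere on chromosome II in a cluster with mir-43 and mir-44 (11889823 to 11890103, plus strand), and its guide changed the other way. mir-42_3p stood at 631, 562 and 464 CPM in the L4 libraries and at 207, 176, 75.6 and 70.1 CPM in the young adults. The groups did not overlap, and the log2 fold change was −2.06 (SE 0.39, adjusted p = 0.0025). In embryos its plain CPM was 3081 ± 176, above both later stages.

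**Figure D2:**
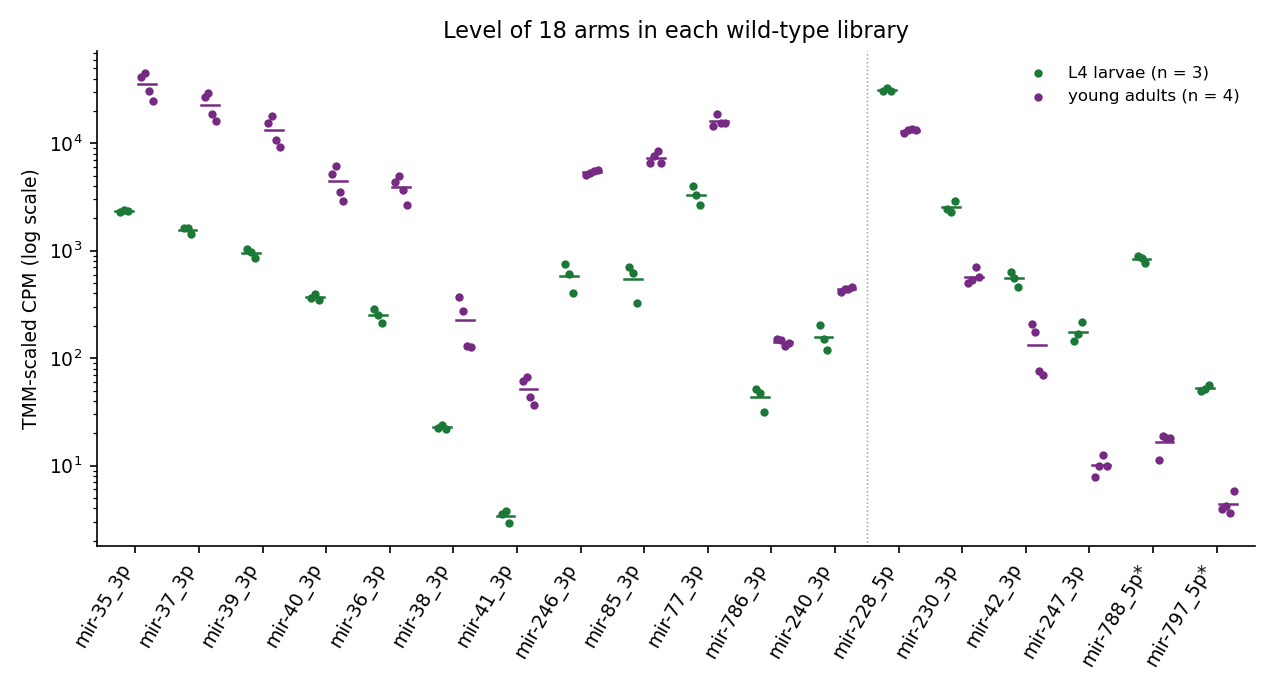
TMM-scaled CPM (y axis, log scale) of 18 arms in each wild-type library, with L4 larvae in green (n = 3) and young adults in purple (n = 4). Each point is 1 library and each bar the group mean, and the dotted line divides arms that rose (left) from arms that fell (right). In none of the 18 arms do the groups overlap, and the young adult points of mir-35_3p lie between 24856 and 44899 CPM.

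Outside this cluster, mir-85_3p and mir-1817_5p rose within the range of its guides and mir-246_3p slightly less. mir-85_3p, from a hairpin in an intron of F49E12.8 on the opposite strand (II, 8393575 to 8393640, plus strand), stood at 699, 621 and 325 CPM in the L4 libraries and at 6602, 7684, 8519 and 6592 CPM in the young adults. Every young adult library exceeded every L4 library (log2 fold change 3.74, SE 0.28, adjusted p = 8.07e-06). mir-246_3p, known in C. elegans to rise with age and to favour long life, stood at 751, 603 and 406 CPM and then at 5077, 5267, 5552 and 5687 CPM, a 9.20-fold rise (log2 fold change 3.20, SE 0.21, adjusted p = 4.29e-06). Its hairpin lies outside protein-coding genes (IV, 10940152 to 10940215, plus strand). Low in absolute level, mir-1817_5p (I, 10869388 to 10869454, minus strand, outside protein-coding genes) rose from 12.9, 5.69 and 2.74 CPM to between 72.3 and 86.1 CPM. mir-85_3p, mir-246_3p and mir-1817_5p were all lowest in L4 replicate 3.

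mir-77, with both arms called higher, is named here after its values were seen, because its star arm is abundant and it fell outside the 15 arms taken per direction. Its guide mir-77_3p (II, 12519291 to 12519350, plus strand) rose from 3304 ± 668 to 16005 ± 1760 CPM (log2 fold change 2.28, SE 0.16), and mir-77_5p* rose from 557 ± 194 to 3944 ± 876 CPM (log2 fold change 2.82, SE 0.27). The clustered pair mir-240 and mir-786 on the X chromosome (7882643 to 7882826, plus strand) is linked in C. elegans to the somatic gonad and, for mir-786, to the intestinal cells that time the defecation rhythm. mir-786_3p stood at 51.5, 47.8 and 31.3 CPM in the L4 libraries and at 149, 148, 129 and 138 CPM in the young adults (log2 fold change 1.70). mir-240_3p rose from 157 ± 42.1 to 438 ± 20.9 CPM (log2 fold change 1.48), and neither pair of groups overlapped.

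The most abundant arm that changed was mir-71_5p, which in C. elegans extends lifespan and is made in neurons and intestine. It stood at 89428, 75998 and 80475 CPM in the L4 libraries and at 121715, 134405, 136018 and 123781 CPM in the young adults. The groups did not overlap, and the log2 fold change was 0.65 (SE 0.08, adjusted p = 0.000182). With spike-in totals as library size it was 0.13 and did not pass. The list of lifespan and stress miRNAs was drawn up with earlier results of these data known, so its share is only a description. Of its 6 guides, 5 were called higher and none lower, against 23.1% higher and 31.5% lower over all 130 guides. The median log2 fold change was 0.74 in the list and −0.14 over all guides. The others were mir-246_3p, mir-34_3p (1.25), mir-239a_5p (0.83) and mir-238_3p (0.25, and −0.24 with spike-in totals, without a call), while mir-239b_5p stood at 2.61 ± 1.43 and 2.53 ± 0.818 CPM. The calls of the low or small changes were fragile. mir-34_3p overlapped between groups, with 16.9 CPM in young adult replicate 2 against 16.6 to 17.5 CPM in the L4 libraries, and the calls of mir-34_3p, mir-239a_5p and mir-238_3p were each lost in at least 6 of 15 alternative settings. The abundant arm of the mir-34 hairpin, mir-34_5p*, annotated as its star and known for its role in the response to stress, rose from 199 ± 9.0 to 326 ± 65.3 CPM (adjusted p = 0.00839).

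Among the falls, the steepest on this scale was mir-788_5p*, from a hairpin on the X chromosome (8485302 to 8485361, minus strand, outside protein-coding genes) that the annotation lists at a pair of nested positions. It stood at 888, 861 and 777 CPM in the L4 libraries and at 11.3, 18.8, 18.1 and 18 CPM in the young adults. The groups lay far apart, with a 50.9-fold fall (log2 fold change −5.67, SE 0.20, adjusted p = 2.26e-07). Its partner mir-788_3p fell far less, from 234 ± 25.6 to 143 ± 36.2 CPM (log2 fold change −0.71).

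The neighbouring hairpins mir-247 and mir-797 (X, 4756991 to 4757186, plus strand) both fell. mir-247_3p stood at 146, 167 and 216 CPM in the L4 libraries and at 7.90, 9.99, 12.5 and 9.91 CPM in the young adults (log2 fold change −4.13, SE 0.22, adjusted p = 2.88e-06). mir-797_5p* fell from 52.6 ± 3.91 to 4.41 ± 0.953 CPM (−3.56) and its guide mir-797_3p from 10.3 ± 0.658 to 6.31 ± 1.19 CPM (−0.70). The 2 stages did not overlap for any of these arms, and the call of mir-797_3p was lost in 4 of 15 alternative settings.

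Both arms of mir-230 (X, 5803908 to 5803974, plus strand) fell alike. mir-230_3p stood at 2451, 2277 and 2932 CPM in the L4 libraries and at 499, 535, 700 and 565 CPM in the young adults (log2 fold change −2.15, SE 0.15). mir-230_5p fell from 243 ± 3.51 to 66.1 ± 4.82 CPM (−1.88). Of the other arms with the largest falls, mir-1819_3p (−2.09), mir-1830_3p (−1.97), mir-244_5p (−1.60) and mir-2953_3p (−1.37) are guides, and mir-67_5p* (−1.68, not called with all 22 libraries of experiment 1), mir-86_3p* (−1.52), mir-52_3p* (−1.46) and mir-57_3p* (−1.31) are stars. These 8 arms stood at 16.6 to 380 CPM on average in L4 larvae and at 5.25 to 133 CPM in young adults.

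Among the heterochronic miRNAs, the guides tested either fell or did not pass. Within the let-7 family, whose members act through a shared seed on targets such as lin-41 and hbl-1, 0 of 6 tested guides were called higher and 2 lower, and mir-793 had no row in the table. Over all guides 23.1% were higher and 31.5% lower, so the family's share of lower calls was near the background. let-7_5p (X, 14744191 to 14744255, minus strand), which acts at the end of larval life, stood at 10390, 12714 and 12645 CPM in the L4 libraries and at 11119, 12851, 15396 and 12007 CPM in the young adults. The groups overlapped, and a log2 fold change between −0.19 and 0.40 was within the 95% interval (estimate 0.11, and −0.40 with spike-in totals, also without a call). mir-48_5p (−0.13), mir-84_5p (−0.11) and mir-795_5p (−0.0095) did not pass the test either. All 3 were called in some alternative settings. mir-84_5p was lower with spike-in totals (−0.61) and with the young adults of experiment 2 (−0.59). mir-48_5p was lower with total counts (−0.24) and spike-in totals (−0.64), but higher with the young adults of experiment 2 (0.38). mir-795_5p was lower with the young adults of experiment 2 (−0.42). mir-241_5p, which with mir-48 and mir-84 acts earlier, in the second larval stage, fell from 2887 ± 71.6 to 1889 ± 234 CPM (log2 fold change −0.61, adjusted p = 0.0023). mir-794_5p fell as well (−0.50), with a call that was lost in 6 of 15 alternative settings.

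While the let-7 guide did not pass, its star arm fell. let-7_3p* stood at 120, 94.8 and 36.4 CPM in the L4 libraries and at 5.49, 7.26, 5.29 and 7.98 CPM in the young adults. All L4 libraries were higher than all young adults, although L4 replicate 3 held less than the others, and the log2 fold change was −3.68 (SE 0.40, adjusted p = 9.09e-05).

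lin-4_5p, the founding miRNA of the heterochronic pathway and a repressor of lin-14 (II, 5902269 to 5902329, plus strand, in an intron of F59G1.4 on the same strand), stood at 2725, 3018 and 3051 CPM in the L4 libraries and at 1979, 1586, 1707 and 2001 CPM in the young adults. The groups did not overlap (log2 fold change −0.69, SE 0.11, adjusted p = 0.00116). Its relative mir-237 fell from 6122 ± 850 to 4266 ± 660 CPM (−0.52, adjusted p = 0.0143), and lost its call without L4 replicate 2 (−0.40) or L4 replicate 3 (−0.47). With the wild-type young adults of experiment 2 set against the same L4 libraries, lin-4_5p was at 0.13 and did not pass. Experiment and stage cannot be told apart there. When all 22 libraries of experiment 1, embryos included, shared the estimate of spread, lin-4_5p (−0.68, adjusted p = 0.594) and mir-237 (−0.51, adjusted p = 0.488) kept their fold changes but not their calls.

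**Figure D3:**
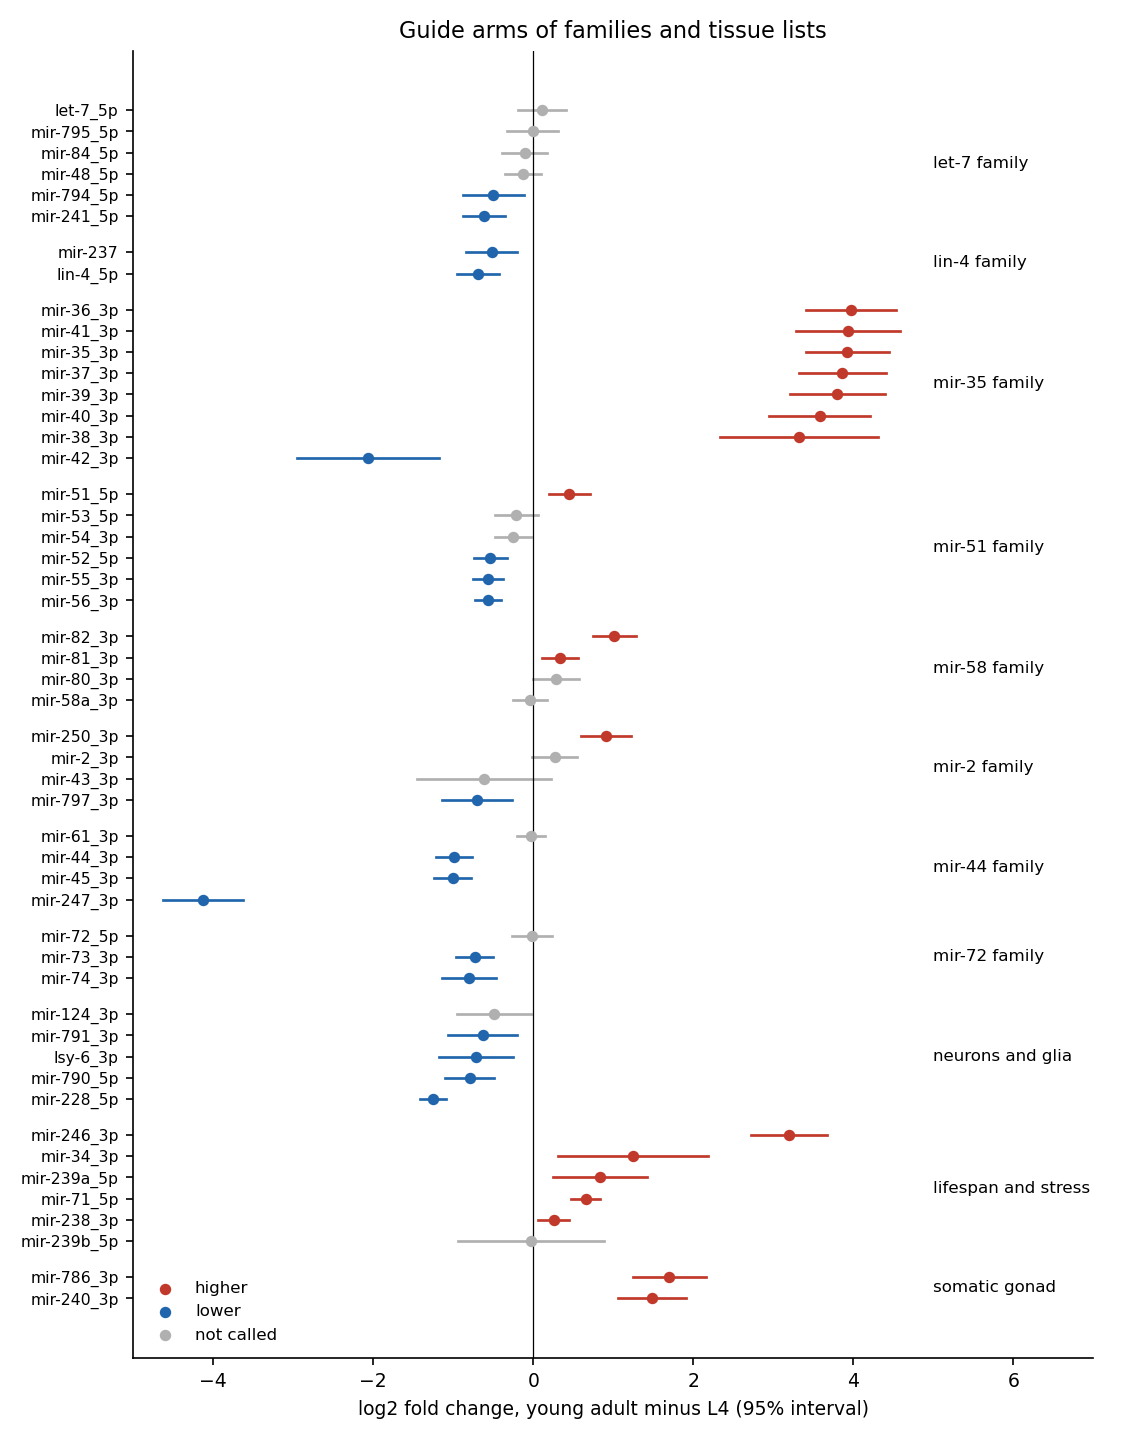
Log2 fold change of young adults over L4 larvae (x axis) for the guide arms of 11 families and tissue lists, with 95% intervals from edgeR as lines and 1 row per arm. Red arms were higher and blue arms lower at an adjusted p of 0.05. The 7 guides of mir-35 to mir-41 lie between 3.32 and 3.97, apart from mir-42_3p at −2.06, and the let-7 family lies between −0.61 and 0.11.

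Larger families showed smaller and mixed changes. The mir-44 family had 3 of 4 guides lower, mir-247_3p among them, against 31.5% of all guides. mir-44_3p and mir-45_3p, of a family that in hermaphrodites favours the sperm fate of germ cells, fell from 34255 ± 2465 to 17238 ± 1710 CPM and from 34621 ± 2194 to 17216 ± 1901 CPM. These near-identical arms could share reads, so they count as 1 observation. The 3 of 4 lower guides hold both arms and may thus overstate the separate falls in the family. Against young adults of experiment 2 the log2 fold changes of mir-44_3p and mir-45_3p, −0.99 and −1.01, became −0.14 and −0.15, without a call. mir-61_3p, of the same family, did not pass, with a 95% interval of −0.21 to 0.15 for its log2 fold change.

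In the mir-51 family, which C. elegans needs in embryos, 1 of 6 guides was higher, mir-51_5p (0.45), and 3 were lower: mir-52_5p (−0.54), mir-55_3p (−0.56) and mir-56_3p (−0.57). Over all guides 23.1% were higher and 31.5% lower. The call of mir-52_5p was lost with the young adults of experiment 2 (−0.24), and that of mir-51_5p with spike-in totals (−0.079). In the mir-58 family, relatives of insect bantam, mir-82_3p rose from 32070 ± 2373 to 64737 ± 8516 CPM (log2 fold change 1.01, adjusted p = 0.000114) with non-overlapping groups. mir-81_3p rose less (0.34, and −0.17 with spike-in totals, without a call), and its call was also lost without young adult replicate 2 or 3, without L4 replicate 2 and with all 22 libraries. mir-58a_3p at 64912 ± 4738 and 63191 ± 5942 CPM did not pass, nor did mir-80_3p (0.28), and mir-58b and mir-1834 had no row. mir-80_3p was called higher in 4 of 15 alternatives: DESeq2's size factors in edgeR (0.36), DESeq2 (0.36), without L4 replicate 3 (0.41) and young adults of experiment 2 (0.92). With spike-in totals mir-80_3p was at −0.24 without a call, and mir-58a_3p was called lower (−0.55). The clustered mir-73_3p and mir-74_3p on the X chromosome fell (−0.73 and −0.80), whereas mir-72_5p of their family stood at 21482 ± 2266 and 21269 ± 2254 CPM. In the mir-2 family mir-250_3p rose (0.91, and 0.38 with spike-in totals, without a call) and mir-797_3p fell. In the group of mir-63, mir-64, mir-65, mir-66 and mir-229, only mir-66_5p passed (0.32). Its call was lost with spike-in totals (−0.18), with total counts (0.21), without L4 replicate 2 (0.32) and with the young adults of experiment 2 (0.22).

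The list of neuronal and glial miRNAs was also drawn up with earlier results of these data known, so its share is only a description. Of its 5 guides, 4 were called lower and none higher, against 31.5% lower and 23.1% higher over all 130 guides. The median log2 fold change was −0.72 in the list and −0.14 over all guides. The list leaves out mir-71_5p, made in neurons and intestine, which was called higher (0.65). mir-228_5p, the glial miRNA (IV, 5562040 to 5562103, plus strand, outside protein-coding genes), stood at 30762, 32547 and 30775 CPM in the L4 libraries and at 12547, 13323, 13561 and 13186 CPM in the young adults. Both groups were tight and far apart (log2 fold change −1.25, SE 0.07, adjusted p = 2.88e-06). lsy-6_3p, which sets the asymmetry of a pair of taste neurons, fell from 19.3 ± 1.61 to 11.7 ± 2.44 CPM (−0.72), mir-791_3p from 29.6 ± 3.45 to 19.1 ± 3.29 CPM (−0.63) and mir-790_5p from 1480 ± 36.8 to 853 ± 128 CPM (−0.80). mir-124_3p, found in sensory neurons, stood at 6.72 ± 1.27 and 4.83 ± 0.533 CPM and did not pass (−0.49, adjusted p = 0.0694). It was called lower in 4 of 15 alternatives: with total counts (−0.59), spike-in totals (−0.98), all 22 libraries (−0.48) and the young adults of experiment 2 (−0.998). The calls of lsy-6_3p, mir-790_5p and mir-791_3p were lost with the young adults of experiment 2 (−0.21, 0.050 and −0.089), and those of lsy-6_3p and mir-791_3p also without L4 replicate 2 or 3. The part that a change in the share of neurons among all cells had in these values was not tested.

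mir-243_3p, which acts with the siRNA Argonaute RDE-1, fell from 563 ± 27.6 to 386 ± 63.2 CPM (−0.54, adjusted p = 0.0132), a call lost without L4 replicate 3 (−0.38) and with the young adults of experiment 2 (−0.22). Among the smaller families, mir-46_3p (−0.68), mir-49_3p (−0.32), mir-79_3p (−0.48), mir-86_5p (−0.42) and mir-233_3p (−0.57) fell and mir-785_3p (0.54) rose. Each of these 6 calls was lost under at least 1 alternative. mir-49_3p lost its call in 8 of 15 and mir-79_3p in 7 of 15, and mir-49_3p was at −0.15 without L4 replicate 3. mir-86_5p lost it without L4 replicate 2 (−0.38) or 3 (−0.31), and mir-233_3p without L4 replicate 3 (−0.45). With the young adults of experiment 2, mir-46_3p (−0.14), mir-49_3p (0.11), mir-233_3p (−0.17) and mir-785_3p (−0.031) did not pass, and mir-785_3p was at 0.057 with spike-in totals. mir-47_3p, mir-75_3p, mir-83_3p and mir-87_3p did not pass. With the young adults of experiment 2, mir-47_3p (0.81) and mir-75_3p (1.10) were called higher. With spike-in totals, mir-47_3p (−0.55) and mir-87_3p (−0.70) were called lower. By chromosome, 10 of 43 guides on the X chromosome were higher and 17 lower, with a median log2 fold change of −0.26. On the autosomes without mir-35 to mir-41, 13 of 80 were higher and 24 lower, with a median of −0.19.

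The share of star strands was examined within each hairpin, since the level of a hairpin cancels in the ratio of its arms. Of 92 hairpins with enough counts in both arms, the log2 star-to-guide ratio differed between the stages in 36 (39.1%) at an adjusted p of 0.05 with limma, 20 (21.7%) higher and 16 (17.4%) lower in young adults. In 17 of these both arms had been called, in 9 only the guide, in 8 only the star and in 2 neither. The median over hairpins of the centred ratio moved by 0.10 on the log2 scale (exact two-sided permutation p = 0.286), where 3 against 4 libraries can give no p below 0.0571.

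The largest shifts were toward the guide arm. mir-788 changed its dominant arm: the annotated star made up 81.1, 76.9 and 76.7% of its counts in the L4 libraries and 10.2, 9.36, 10.04 and 12.1% in the young adults (shift −4.95 on the log2 scale, SE 0.22, adjusted p = 2.41e-10). For mir-797 the star share was 83.6 ± 1.85% in L4 larvae and 41.2 ± 7.09% in young adults (−2.87). The star share of let-7 was 1.15, 0.740 and 0.287% in the L4 libraries and 0.0493, 0.0565, 0.0344 and 0.0664% in the young adults (shift −3.63, SE 0.41, adjusted p = 1.28e-05). It rested on the star arm, as the guide did not pass. For mir-85 the reverse held, since its guide rose while its star stood at 4.39 ± 3.74 and 2.44 ± 1.1 CPM (star share 0.699 ± 0.447 to 0.0335 ± 0.0161%, shift −4.31). mir-246 (−1.51) and mir-67 (−1.49) also shifted toward the guide, but with the young adults of experiment 2 their shifts of −0.33 and −0.096 did not pass. The call of mir-67 was also lost without L4 replicate 1 (−1.37).

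Toward the star arm, the shifts called were led by mir-244 (2.09), mir-42 (1.89), mir-789-1 (1.81), mir-73 (1.64), mir-789-2 (1.54) and mir-56 (1.46). The call of mir-244 was lost in 5 of 9 alternatives, among them leaving out young adult replicate 1 (1.80) or 4 (1.79) and L4 replicate 1 (2.19) or 3 (1.45). With the young adults of experiment 2, mir-56 was at 0.37 and did not pass. The star share of mir-42 was 9.35, 7.27 and 10.5% in the L4 libraries and 26.5, 18.1, 28.4 and 35.7% in the young adults, with no overlap. In mir-42 and mir-244 only the guide had been called, lower in both. mir-244 had wide shares in young adults, between 0.949 and 3.66%, and mir-789-1 and mir-789-2 have near-identical arms, so their reads may be split. Summed over all hairpins, star arms took 1.09, 0.891 and 0.818% of miRNA counts in the L4 libraries and 1.25, 1.17, 1.23 and 1.28% in the young adults. The groups did not overlap, and the difference of 0.300 percentage points had an exact two-sided permutation p of 0.0571 (0.0857 adjusted over 3 values), the smallest that 35 splits allow. Abundant stars weigh most in this sum. The rise of mir-77_5p* alone (log2 fold change 2.82) was about as large as the whole difference. Its hairpin had no called shift (0.56, adjusted p = 0.128 in limma). The sum by itself therefore does not show a general rise of star strands. The median ratio over hairpins moved by 0.10 (exact permutation p = 0.286). That test can give no p below 0.0571, so it cannot decide whether star strands rose in general.

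**Figure D4:**
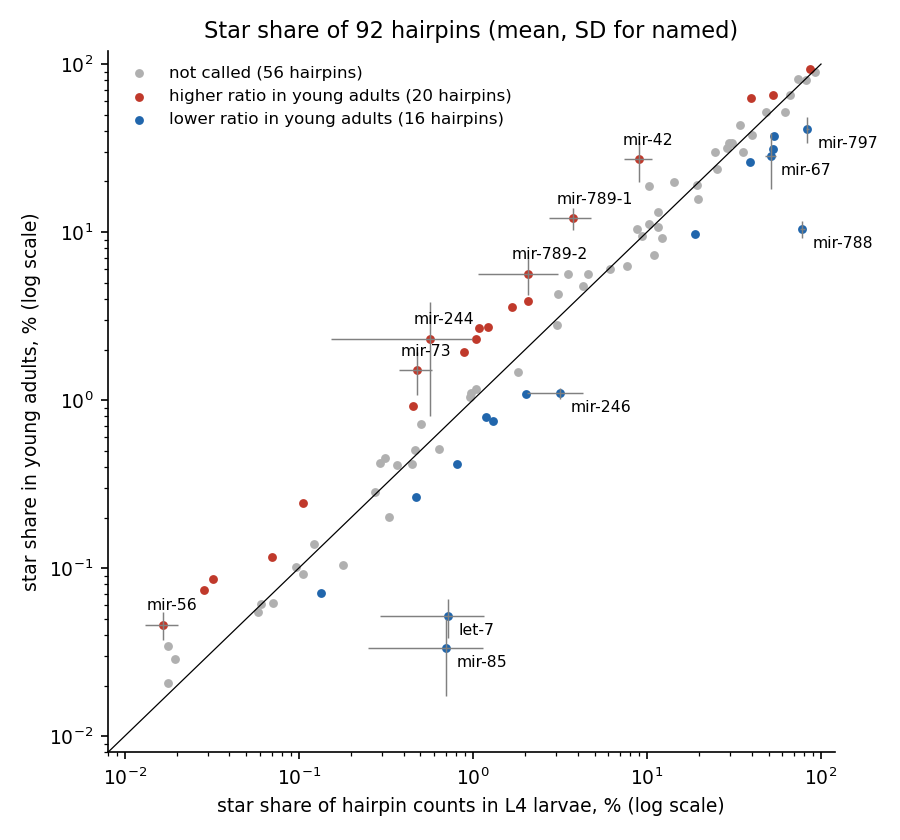
Star share of each hairpin's counts in L4 larvae (x axis) and in young adults (y axis), both in percent on log scales, for 92 hairpins, 1 point a hairpin at the group means with SD for the named hairpins. Red hairpins (20) had a higher and blue hairpins (16) a lower star-to-guide ratio in young adults by limma, and the line marks equal shares. mir-788 lies at 78.2% in L4 larvae and 10.4% in young adults.

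The counts of miRNAs per spike-in count were 6.06, 5.25 and 5.05 in the L4 libraries and 4.50, 3.29, 3.76 and 5.03 in the young adults. The groups did not overlap, though L4 replicate 3 and young adult replicate 4 nearly met, and the difference of −0.41 on the log2 scale had an exact two-sided permutation p of 0.0571. How the spike-ins were added is not given in the sources used here. With the young adults of experiment 2 the difference was 0.67, in the other direction.

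The same stage step was compared in animals with alg-1(AEDH); alg-2(AEDH), a mutation of the catalytic tetrad in both Argonautes, called double AEDH. Its 3 L4 and 4 young adult libraries are separate from the wild-type ones and were grown at the same temperatures. There 67 of 222 arms passed (30.2%), 43 higher and 24 lower. Of the 123 wild-type calls tested in both genotypes, 121 had the same sign, and 65 were called with the same sign, which is 52.4% of all 124 wild-type calls and 97.0% of the 67 double AEDH calls. The exceptions in sign were mir-67_5p* (−1.68 in wild type, 0.52 in double AEDH) and mir-81_5p* (−0.50 and 0.041), named because there were only 2. Across the 220 arms tested in both, Pearson's r was 0.96 and Spearman's rho 0.89, a description across arms that share their libraries.

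The arms with the largest wild-type changes had close values in double AEDH animals: mir-35_3p 3.88, mir-85_3p 3.25, mir-246_3p 2.78, mir-788_5p* −5.91, mir-247_3p −3.80 and let-7_3p* −4.26. mir-42_3p was at −1.35 there and did not pass, and mir-86_3p* was at −0.49 without a call. The difference of the stage effects was itself tested: 0 of 229 arms (0%) passed in edgeR and 0 in DESeq2, and 4 had an unadjusted p under 0.05 in edgeR. With few libraries per group, the lack of calls does not show that the stage effects are equal. Of the 36 hairpins with a called shift of the star-to-guide ratio, 34 had the same sign in double AEDH animals, where mir-788 shifted by −4.34 and let-7 by −3.89. Not all of the 34 passed there, mir-232 (−0.88) and mir-244 (0.59) among those that did not. The exceptions in sign were mir-67 (−1.49 in wild type, 0.20 in double AEDH) and mir-86 (−1.09 and 0.034).

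**Figure D5:**
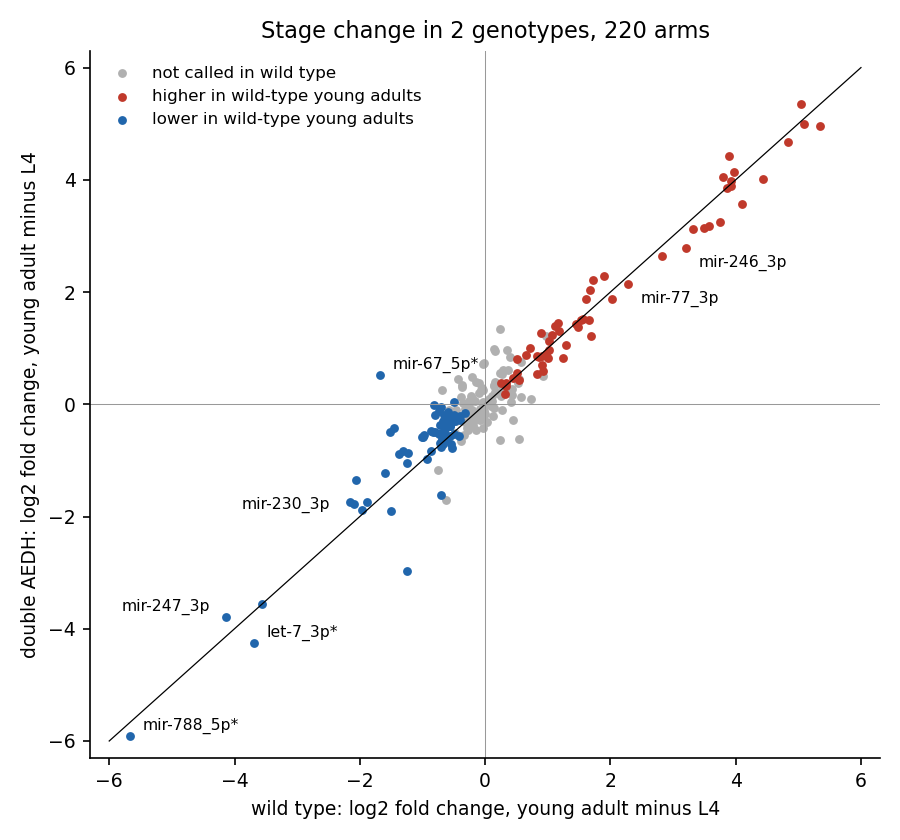
Log2 fold change of young adults over L4 larvae in wild type (x axis) and in double AEDH animals (y axis) for the 220 arms tested in both, 1 point an arm, with the line of equal change. Red and blue arms were higher and lower in wild-type young adults. Of the 123 called wild-type arms 121 lie on the same side of 0 in both genotypes, with mir-67_5p* among the exceptions.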

How the data were processed

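Whole animals were used for small RNA sequencing, with a ligation-based kit and gel size selection once the RNA had been reverse transcribed, per the labels' protocols. The authors deposited estimated counts for each miRNA arm, without normalization. DESeq2, HTSeq 0.13.5, SAMtools 1.13, Bowtie2 2.4.4 and cutadapt 3.4 are named in the submitters' processing notes, with settings not given in the sources used here. Arm positions come from MirGeneDB on the ce11 build, per the file headers. Of the values of the 7 libraries 6.63% ended in 0.5, and all were rounded. Reads outside annotated features (29.5 to 41.8% per library) and spike-ins stayed out of library sizes and tests.

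Counts were tested with edgeR 4.0.16 in R 4.3.3 (robust quasi-likelihood test, TMM scaling) on the 7 libraries, after a filter on low counts by filterByExpr (minimum 10), and p-values were adjusted by Benjamini-Hochberg over all tested arms. Log2 star-to-guide ratios, with 0.5 added to each count, were tested with limma 3.58.1 where both arms of a hairpin averaged 10 or more counts. The star was the annotated arm for 132 of 138 hairpins and otherwise the arm of lower abundance. Double AEDH animals were fitted alone, and the difference of stage effects as an interaction. Single values per library were compared by exact permutation tests. No pair of replicates was within sampling noise (lowest chi-square per degree of freedom 215). Intervals rest on the spread between libraries as modelled by edgeR or limma, and floors on counts only. Reads carry no molecular identifiers. The scripts were tested on simulated data. Hairpin context was read from a WBcel235 gene annotation, which is the same assembly as ce11.

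Named arms were the called arms of largest change (up to 15 per direction, with an average of 10 CPM or more), the 6 of highest mean CPM per stage, all guides of the let-7, lin-4 and mir-35 families, mir-1_3p, mir-124_3p and mir-243_3p, for the ratio the 6 hairpins of largest called shift each way, and called or extreme members of the other lists. The members and lists were chosen with earlier results of these data known. Alternatives were other scalings, DESeq2 1.42.0, no filter, a replicate block, all 22 libraries of experiment 1, young adults of experiment 2, another pseudocount (1) and count minimum (50), and leaving out each replicate.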

Additional observations from a re-analysis of the deposited data

Results flagged for a closer look

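Of 96 sets of 4 young adult libraries checked for a single library far from the others, 4 were picked out, and chance picks about 1 in 20. For mir-237, young adult replicate 4 held 5253 CPM against 3862 to 4005 CPM in the others. For mir-67_5p* the same replicate held 1.93 CPM against 6.12 to 6.58 CPM. For mir-788_5p*, young adult replicate 1 held 11.3 CPM against 18 to 18.8 CPM. For mir-80_3p, young adult replicate 3 held 52682 CPM against 37044 to 38795 CPM.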

How the results depend on the processing

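The count of 124 arms stayed within 1.5 times under every alternative, from 86 to 138. Without L4 replicate 2 it was 86 and without L4 replicate 3 it was 97, and leaving out any other replicate gave up to 119. The counts for the ratio (26 to 40) and for double AEDH animals (46 to 85) also stayed within 1.5 times of 36 and 67, and the interaction stayed at 0. Same-numbered libraries of the 2 stages had correlated deviations of 0.049, 0.035 and 0.022, so the numbers were not taken as pairs; with a replicate block 105 arms, 28 ratios (mir-67 at −1.06 and mir-244 at 1.79 no longer among them), 55 arms in double AEDH animals and 0 interactions passed. Of 81 named arms, 38 kept direction and call under all alternatives. Of the 64 called, 26 lost the call under at least 1, and 22 of the 81 changed sign. Of 12 named hairpins, 8 kept direction and call of the ratio under all alternatives run. Leaving out single replicates moved the median star-to-guide shift between 0.0090 and 0.20, the star share difference between 0.242 and 0.378 percentage points (0.522 with young adults of experiment 2) and the miRNA to spike-in difference between −0.51 and −0.31.

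The miRNA to spike-in difference of −0.41 became 0.67 with young adults of experiment 2. In that setting let-7_5p (−0.0686), lin-4_5p (0.13), mir-61_3p (0.29), mir-72_5p (0.00584), mir-790_5p (0.0497), mir-49_3p (0.11) and mir-785_3p (−0.0313) changed sign without a call, and mir-48_5p (0.38), mir-64_5p (0.77) and mir-47_3p (0.81) changed sign and were called higher. With spike-in totals mir-80_3p (−0.24), let-7_5p (−0.40), mir-51_5p (−0.0795), mir-81_3p (−0.17), mir-66_5p (−0.18), mir-238_3p (−0.24), mir-83_3p (−0.29) and mir-75_3p (−0.28) changed sign without a call, and with total counts let-7_5p was at −0.00467. With DESeq2's size factors in edgeR mir-58a_3p (0.0417), mir-795_5p (0.0714), mir-61_3p (0.0516), mir-72_5p (0.0667), mir-239b_5p (0.0448) and mir-47_3p (0.0459) changed sign, and in DESeq2 itself the values were 0.0417, 0.0710, 0.0516, 0.0667, 0.0405 and 0.0459, in the same order. With the replicate block mir-795_5p (0.0294), mir-72_5p (0.0224) and mir-239b_5p (0.00753) did, and with all 22 libraries mir-795_5p (0.00143). Leaving out single replicates moved 10 arms that had not passed across 0, from the lowest to the highest value: mir-1_3p −0.19 to 0.0693, mir-58a_3p −0.10 to 0.0976, mir-48_5p −0.19 to 0.0271, mir-795_5p −0.0729 to 0.0968, mir-84_5p −0.22 to 0.0845, mir-61_3p −0.0879 to 0.15, mir-64_5p −0.21 to 0.25, mir-72_5p −0.10 to 0.17, mir-239b_5p −0.21 to 0.53 and mir-47_3p −0.0885 to 0.12. Arms that had not passed also gained calls. With spike-in totals mir-58a_3p (−0.55), mir-70_3p (−0.67), mir-61_3p (−0.52), mir-64_5p (−0.56), mir-72_5p (−0.53), mir-47_3p (−0.55) and mir-87_3p (−0.70) were called lower. With total counts mir-70_3p (−0.29) was called lower too. The cause of these changes was not tested. Depth limits the 52 arms left untested and the stars of mir-35, mir-37 and mir-38 in L4 larvae.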

Other observations

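A few arms outside the naming rule were looked at after their values were seen. mir-355_5p stood at 1265, 459 and 286 CPM in the 3 L4 libraries and at 493 to 677 CPM in the young adults, and did not pass (log2 fold change −0.21, adjusted p = 0.702). mir-5594_3p rose from 3.32 ± 0.992 to 13.7 ± 1.78 CPM (log2 fold change 2.02). Both arms of mir-259 rose, mir-259_5p from 51.7 ± 7.73 to 96.6 ± 13.5 CPM and mir-259_3p* from 16.8 ± 0.616 to 41 ± 3.20 CPM. mir-1829b_5p (1.62) and mir-1829c_5p (1.52) rose as well, and these related miRNAs may share reads. On plain CPM, wild-type embryos of experiment 1 had 34122 ± 3760 for mir-44_3p, close to the 35770 ± 1978 of L4 larvae, and 45.7 ± 8.17 for let-7_5p, far below the 12433 ± 1118 of L4 larvae. These embryo values are descriptions, with no test.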
